A study of Mus musculus with 28 samples.

Results

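The glutathione peroxidases of the mouse, Gpx1 to Gpx8, were examined in total RNA of 4 tissues from young and old animals. Their 8 genes were taken by name from 2 tables of array values that cover 19928 genes (liver and quadriceps) and 30063 genes (heart and gastrocnemius), and all 8 had a probe set in both. Where a gene had several probe sets, one was selected on its mean log2 level: the brightest in its table. That choice arose only for Gpx4 in the liver and quadriceps table, where the probe set used had a mean log2 level of 10.15 and the other one 10.06. The family itself was chosen by a measured value, the higher level of Gpx6 in old liver, so the age differences in liver are given as a description and are not tested here.

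All 28 samples came from female C57BL/6J mice kept in groups on a standard chow and killed after a night without food. This inbred strain carries a deletion in Nnt, a mitochondrial source of NADPH, and young and old groups share it. Young mice were 6 months old (24 weeks) and old mice 24 months (103 weeks). For liver and for quadriceps, the large muscle of the thigh, there were 3 arrays at each age. For heart and for gastrocnemius, in the calf, there were 4 at each age on another array type. Nothing in the labels ties a replicate to a separate animal, and the p-values then reflect only how far these samples scatter, which may be technical. Nor do the labels say whether tissues came from the same animals, and comparisons between tissues took the arrays as independent.

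Glutathione peroxidases reduce hydrogen peroxide and organic or lipid hydroperoxides to water or alcohols, with glutathione as the electron donor, and glutathione reductase then recycles the oxidised glutathione with NADPH. In the mouse, Gpx1 to Gpx4 carry selenocysteine at the active site, while Gpx5 to Gpx8 carry cysteine there. Gpx1 is the abundant cytosolic and mitochondrial form, Gpx2 the form of the gut lining, Gpx3 the form secreted into plasma, and Gpx4 the form that reduces lipid hydroperoxides within membranes and protects cells from ferroptosis. Gpx5 is known from the epididymis and Gpx6 from the olfactory epithelium. Gpx7 and Gpx8 sit in the endoplasmic reticulum, where they pass oxidising power from hydrogen peroxide to protein folding.

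Levels are the authors' log2 expression values, on which 1 unit stands for a 2-fold change. Probe sets differ in how well they bind, and levels of different genes are therefore not ranked against each other, nor are levels compared across the 2 tables, which were made on different array types. The files hold no detection call. Olfactory receptor genes, most of which these tissues are not known to use, served as a rough guide to values that cannot be told from background. They were read on the same arrays (1027 genes in the liver and quadriceps table, 1225 in the other). Their 95th percentile lay at 6.05 to 6.34 in liver, 5.92 to 5.99 in quadriceps, 5.38 to 5.63 in heart and 4.95 to 5.20 in gastrocnemius.

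Defining markers of each labelled tissue were high in it. The mean of 7 hepatocyte markers was 13.64 to 13.72 over the liver arrays. The mean of 7 fast muscle markers was 13.43 to 13.55 over quadriceps arrays, and in gastrocnemius it was 12.94 to 13.12. The mean of 6 measured cardiac markers was 11.69 to 12.11 over the heart arrays. The same hepatocyte mean reached 8.74 in quadriceps 24-month replicate 1, where the rest of that tissue had 6.11 to 7.36. In heart it reached 6.46 in 6-month replicate 2, where the rest of the heart arrays had 5.07 to 5.81. The mean of 5 measured adipocyte markers ranged from 7.54 to 8.79 over the quadriceps arrays. In liver 24-month replicate 2 the mean of 5 measured exocrine pancreas markers was 9.57, against 6.28 to 6.75 in the other liver arrays. In bulk tissue, fewer cells of a type and less RNA per cell cannot be told apart.

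Gpx1 and Gpx3 divided liver from quadriceps in opposite ways. Gpx1 stood at 13.30, 13.29 and 13.26 in young liver and at 13.13, 13.11 and 13.28 in old liver. In quadriceps it read 9.90, 9.67 and 9.48 at 6 months and 9.81, 9.51 and 9.66 at 24 months. Every liver array thus lay above every quadriceps array. At 6 months Gpx1 was 12.1-fold higher in liver (log2 difference 3.60, SE 0.11, 95% interval 3.37 to 3.83, limma, adjusted p = 7.21e-13), and at 24 months 11.4-fold higher (3.51, adjusted p = 9.86e-13). The highest quadriceps values of Gpx1 at each age were in replicate 1. Of the 24-month arrays that is also the one with the hepatocyte mean of 8.74, and the part of liver RNA in the quadriceps level of Gpx1 was not tested.

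Gpx3, which encodes the plasma enzyme, went the other way. Its liver values were 6.67, 7.11 and 7.56 at 6 months and 7.18, 7.13 and 7.16 at 24 months. Its quadriceps values were 11.66, 11.50 and 11.46, and then 11.64, 11.56 and 11.51. The lowest quadriceps array was far above the highest liver array. Gpx3 was 21.5-fold lower in young liver than in young quadriceps (log2 difference -4.43, SE 0.16, 95% interval -4.77 to -4.09, adjusted p = 6.74e-12) and 21.3-fold lower at 24 months (-4.41, adjusted p = 7.33e-12). The mean of the adipocyte markers, cells known to make Gpx3, was 8.67, 8.59 and 7.54 in the young quadriceps arrays and 8.68, 8.07 and 8.79 in the old ones, and its part in the level of Gpx3 was not tested.

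The promoters of these genes are shown because their products are the ones most unequal between the tissues. Each line holds the 250 bases before the annotated start in RefSeq (GRCm38.p6), read 5′ to 3′ on the gene's strand, with the GC box GGGCGG, the CCAAT box CCAAT and the TATA box TATAAA in capitals on either strand. The core of the antioxidant response element, TGACNNNGC, was searched as well. Gpx1 lies at chr9:108338830-108339079 on the plus strand and Gpx3 at chr11:54902604-54902853 on the plus strand.
Gpx1: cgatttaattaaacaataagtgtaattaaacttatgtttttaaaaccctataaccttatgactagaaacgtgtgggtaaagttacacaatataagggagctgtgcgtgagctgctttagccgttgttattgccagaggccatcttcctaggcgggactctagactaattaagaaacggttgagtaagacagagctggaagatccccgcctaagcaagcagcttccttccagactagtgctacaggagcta
Gpx3: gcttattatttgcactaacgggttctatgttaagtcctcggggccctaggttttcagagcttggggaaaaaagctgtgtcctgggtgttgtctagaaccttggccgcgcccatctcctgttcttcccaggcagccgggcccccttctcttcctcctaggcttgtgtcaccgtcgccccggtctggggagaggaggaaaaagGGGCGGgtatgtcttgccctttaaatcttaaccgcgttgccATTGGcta
The Gpx1 window held none of the 4 motifs and 42.0% G and C. The Gpx3 window held 1 GC box and 1 CCAAT box close to the start, and 55.2% G and C, where the median of all windows was 52.4%. Over all 32851 windows of this length, 32.7% held the GC box, 33.8% the CCAAT box, 12.4% the TATA box and 10.2% the antioxidant response core. None of the windows of the 8 genes held the antioxidant response core or the TATA box, which says only that these letters are not in them.

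**Figure D1:**
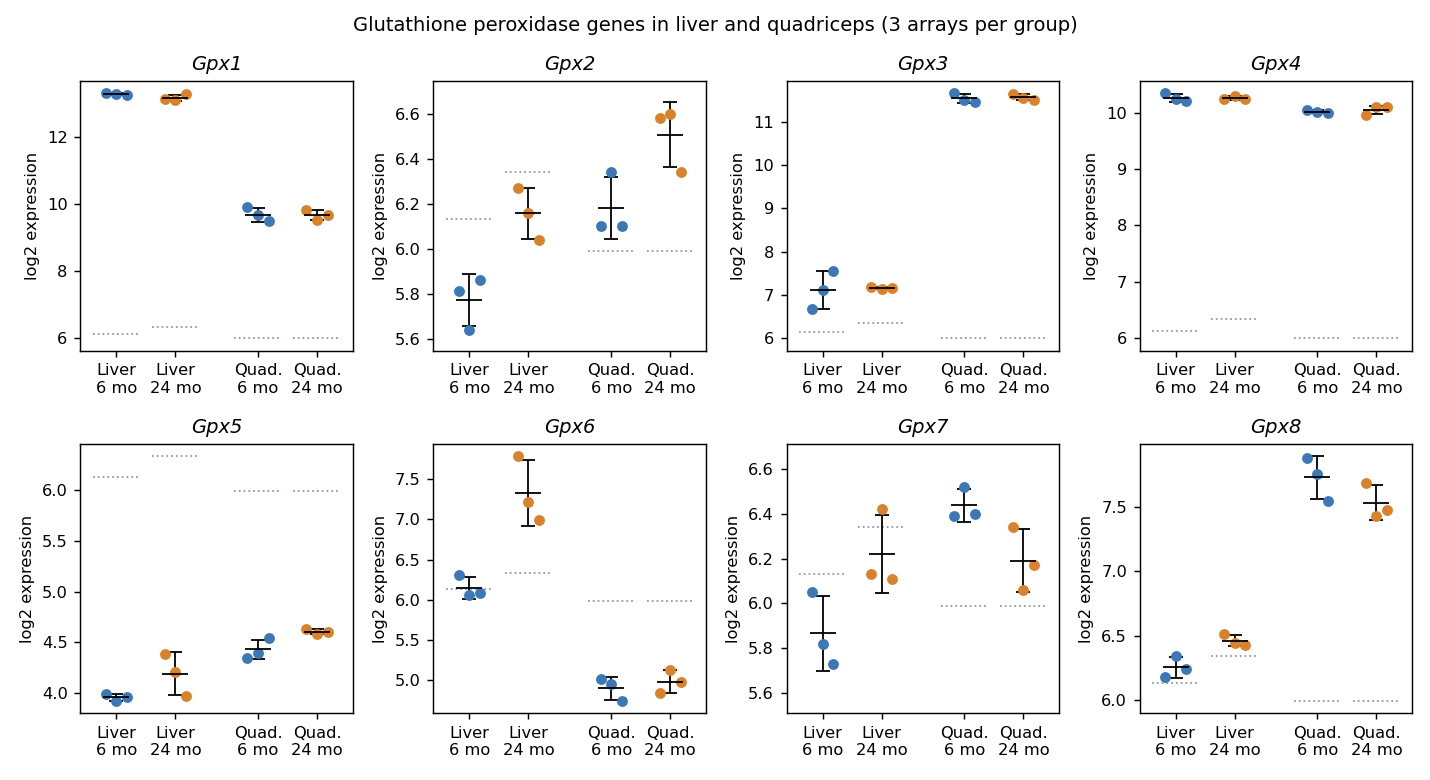
Log2 expression (y axis, a separate range per panel) of each glutathione peroxidase gene in liver and quadriceps at 6 months (blue) and 24 months (orange); points are single arrays, the bar is the mean with its SD (n = 3), and the dotted line is the highest 95th percentile of olfactory receptor genes in that group. Gpx1 is near 13 in liver and below 10 in quadriceps, Gpx3 is above 11 in quadriceps only, and Gpx6 reaches 6.99 to 7.79 in old liver.

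Gpx4 differed little between the tissues. It read 10.35, 10.25 and 10.21 in young liver and at most 10.05 in young quadriceps, and the groups did not overlap. The difference was 0.25 (SE 0.07, 95% interval 0.10 to 0.39, adjusted p = 0.00562). With quantile normalization it was -0.05 (adjusted p = 0.541) and with arrays centred on their median 0.13 (adjusted p = 0.108), so its direction depended on the scaling. As deposited, the other probe set of Gpx4 read 10.29, 10.22 and 10.16 in young liver and 9.92, 9.86 and 9.87 in young quadriceps, also without overlap.

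Gpx8, one of the endoplasmic reticulum forms, was higher in quadriceps. It read 7.88, 7.76 and 7.55 in young quadriceps against 6.18, 6.34 and 6.24 in young liver, with no overlap. It was 2.78-fold lower in liver (log2 difference -1.48, SE 0.09, 95% interval -1.68 to -1.27, adjusted p = 5.23e-09). At 24 months the difference was -1.07 (adjusted p = 1.83e-07). Gpx7, the other such form, was lower in young liver too (-0.57, SE 0.11, adjusted p = 0.000344; -0.80 to -0.34 as a 95% interval). Its liver values of 6.05, 5.82 and 5.73 did not exceed the olfactory receptor level, while its quadriceps values of 6.39, 6.52 and 6.40 did. At 24 months the tissues no longer differed in Gpx7 by this test (0.03, 95% interval -0.20 to 0.26, adjusted p = 0.815).

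The gut form Gpx2 and the epididymal form Gpx5 were called lower in young liver than in young quadriceps, by small amounts near background. Gpx2 had means of 5.77 and 6.18 (difference -0.41, adjusted p = 0.0025) and Gpx5 of 3.96 and 4.43 (-0.47, adjusted p = 0.000548). Gpx5 lay below the olfactory receptor level in every array of both tissues, and Gpx2 in every liver array. In all, 8 of 8 members were called between young liver and young quadriceps, 3 higher and 5 lower in liver, where 68.2% of all genes were called (40.7% higher and 27.5% lower, which is 8111 higher and 5479 lower in liver as deposited, 6367 and 7467 with quantile normalization, and 6746 and 6936 with centred arrays). The median difference of all genes was 0.10 as deposited and -0.04 and -0.02 under those scalings. A call in this comparison was thus common. Among genes of like expression (10 equal classes), the 5th to 95th percentiles ran from -2.46 to 4.46 in the class of Gpx1 and Gpx3; Gpx3 lay outside this range and Gpx1 inside. Gpx6 is among the members counted as higher, at both ages, but nothing is read from its call, since its quadriceps level was not above that of the olfactory receptor genes and its liver arrays helped to choose the family. At 24 months 7 members were called, all but Gpx7, where 70.8% of all genes were.

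Heart and gastrocnemius, both striated muscle, differed in Gpx8. In young heart it read 7.87, 7.78, 8.02 and 7.80, and in young gastrocnemius 6.22, 6.22, 6.72 and 6.30. All heart arrays lay above all gastrocnemius arrays. Gpx8 was 2.83-fold higher in heart (log2 difference 1.50, SE 0.09, 95% interval 1.30 to 1.70, adjusted p = 4.34e-10) and 2.90-fold higher at 24 months (1.54, adjusted p = 3.16e-10). Over every alternative scaling, filter and left-out array tried, the difference stayed between 1.19 and 1.62. In its class of expression the 5th to 95th percentiles were -0.73 and 1.19. The mean of 5 endothelial markers was likewise higher in heart, at 9.40 to 9.48 over the young arrays against 7.68 to 8.09 in young gastrocnemius, and that of 5 measured fibroblast markers was 8.34 to 8.61 against 8.20 to 8.46; their part in the level of Gpx8 was not tested.

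For the other 7 members, the call or the direction depended on how the arrays were scaled. The median gene was 0.26 higher in young heart than in young gastrocnemius as deposited, and -0.06 and -0.05 with quantile normalization and with centred arrays. As deposited, 5 of 8 members were called, each higher in heart, where 75.5% of all genes were called (60.8% higher; 18264 higher and 4427 lower, or 7637 and 11234 with quantile normalization, and 7880 and 11182 with centred arrays). Besides Gpx8 these were Gpx2 (0.54, adjusted p = 0.000316), Gpx6 (0.42, adjusted p = 0.00216), Gpx3 (0.26, adjusted p = 0.00175) and Gpx4 (0.22, adjusted p = 0.0107). Gpx2 and Gpx6 lay below the olfactory receptor level in every heart and gastrocnemius array. Gpx2 was no longer called under either scaling (0.13, adjusted p = 0.296, and 0.22, adjusted p = 0.0562). Gpx3 and Gpx4 turned to -0.06 and -0.10 with centred arrays, and Gpx6 to -0.01 with quantile normalization. Gpx1, whose means were 9.47 and 9.35, was not called (0.12, 95% interval -0.01 to 0.26, adjusted p = 0.0892), nor were Gpx5 (0.08, adjusted p = 0.282) and Gpx7 (0.04, adjusted p = 0.46); with centred arrays all 3 were called lower in heart, at -0.19 (adjusted p = 0.0243), -0.24 (adjusted p = 0.00297) and -0.28 (adjusted p = 0.00021). With quantile normalization Gpx1 was called higher (0.15, adjusted p = 0.0389), and Gpx5 (-0.33, adjusted p = 0.000126) and Gpx7 (-0.30, adjusted p = 5.17e-05) lower. At 24 months all 8 members were called higher in heart as deposited, where 75% of all genes were called in either direction (18337 higher and 4203 lower). The median gene was then 0.27 higher in heart, and the 24-month comparison was not run under the other scalings.

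**Figure D2:**
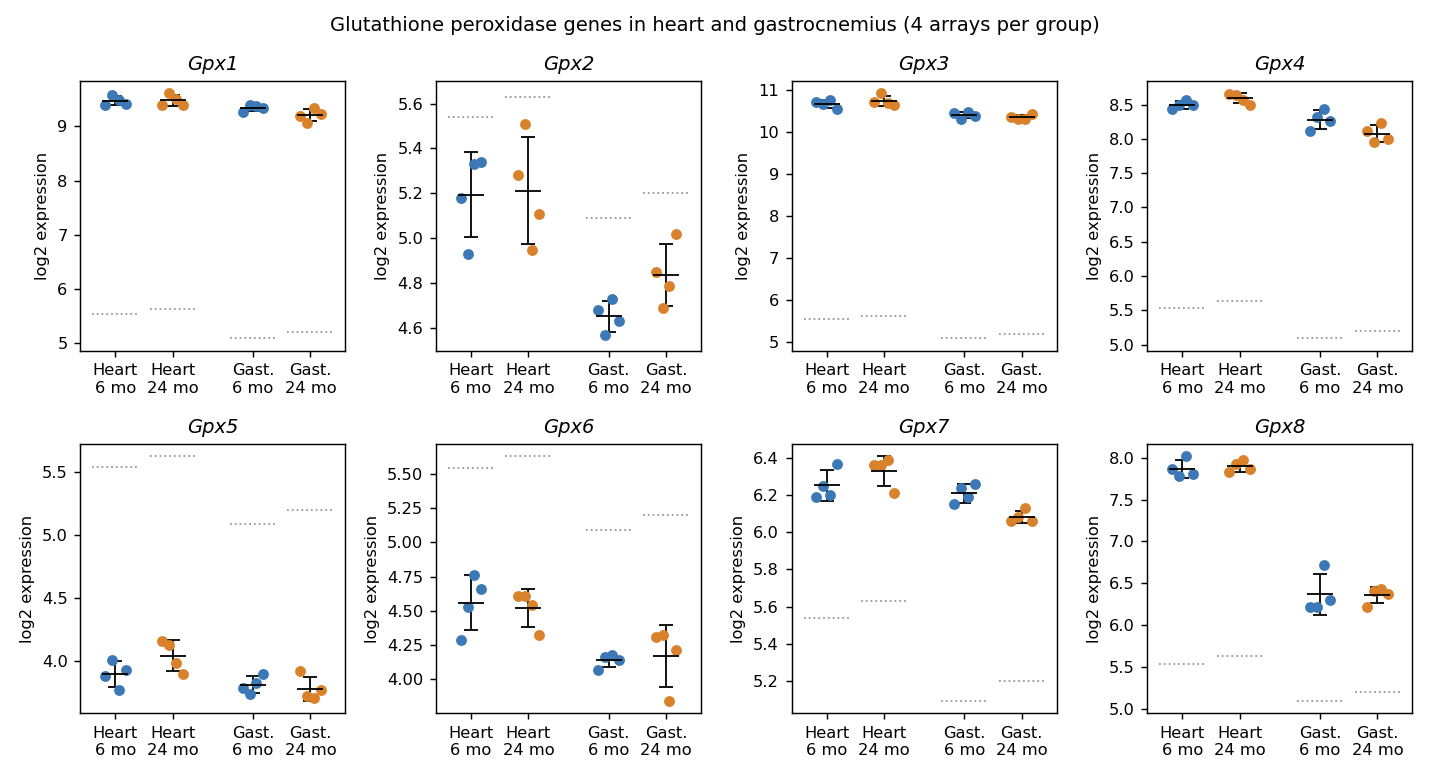
Log2 expression (y axis, a separate range per panel) of each glutathione peroxidase gene in heart and gastrocnemius at 6 months (blue) and 24 months (orange); points are single arrays, the bar is the mean with its SD (n = 4), and the dotted line is the highest 95th percentile of olfactory receptor genes in that group. Gpx8 separates the tissues, at 7.78 or above in heart and 6.72 or below in gastrocnemius, while Gpx2, Gpx5 and Gpx6 lie under the dotted lines.

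**Figure D3:**
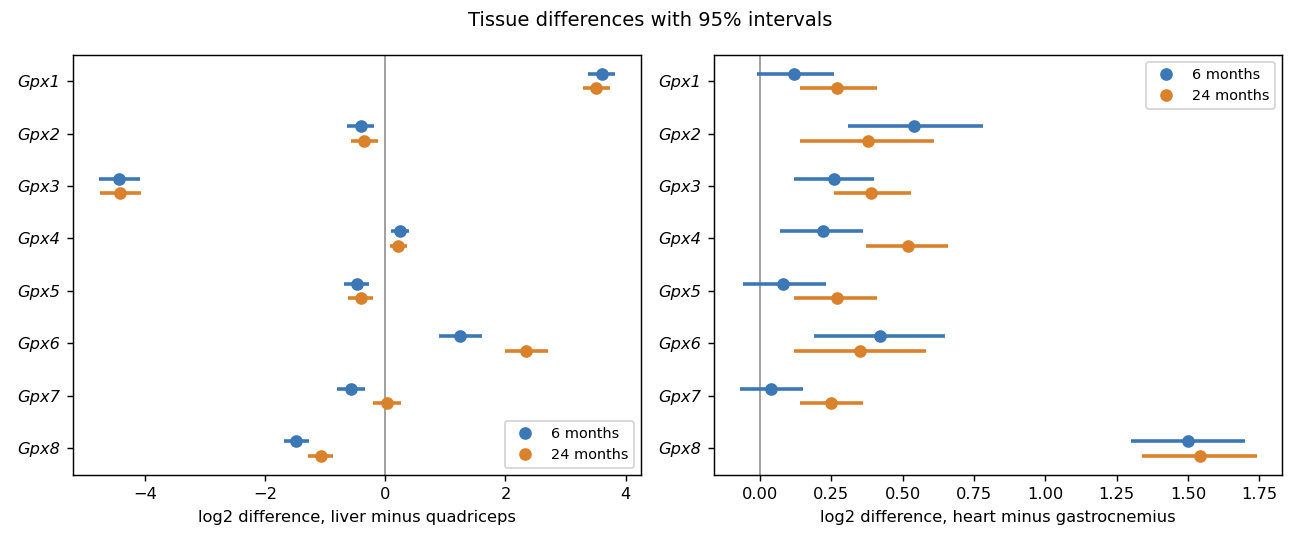
Tissue differences of the 8 genes on the log2 scale (x axis) with 95% intervals at 6 months (blue) and 24 months (orange), liver minus quadriceps on the left and heart minus gastrocnemius on the right; the x ranges differ. On the left Gpx1 lies at 3.60 and 3.51 and Gpx3 at -4.43 and -4.41, and on the right Gpx8 lies at 1.50 and 1.54.

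With age, the widest difference among the members was that of Gpx6 in liver. It read 6.31, 6.06 and 6.09 in young liver and 7.79, 7.22 and 6.99 in old liver. The groups did not overlap, and the lowest old array was 6.99 where the highest young one was 6.31. The old mean was 2.27-fold higher (7.33 ± 0.41 against 6.15 ± 0.14, SD, n = 3 per age; log2 difference 1.18, SE 0.18). Young liver was close to the olfactory receptor level of 6.05 to 6.13, and old liver stood above its own level of 6.13 to 6.34, so the fold rests on a young level near background. In its class of expression the 5th to 95th percentiles of liver genes were -0.40 and 0.41. Leaving out each array in turn gave 0.95 to 1.35, the lowest without 24-month replicate 1. Without 24-month replicate 2, the array with the high exocrine pancreas mean, it was 1.24. Since this difference chose the family, the lack of overlap, the class range and the left-out arrays describe it and do not test it.

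Outside liver, Gpx6 stayed below the olfactory receptor level in each array at both ages. Its quadriceps means were 4.90 ± 0.14 and 4.98 ± 0.15 (SD, n = 3; difference 0.08, 95% interval -0.15 to 0.31). Its heart means were 4.56 ± 0.20 and 4.52 ± 0.14 (n = 4; -0.04, 95% interval -0.27 to 0.19), and its gastrocnemius means 4.14 ± 0.05 and 4.17 ± 0.23 (n = 4; 0.03, 95% interval -0.19 to 0.25). None of these was called (adjusted p = 0.909, 0.993 and 0.898). Its young liver mean of 6.15 and young quadriceps mean of 4.90 are given as levels only, since the quadriceps arrays were not above the olfactory receptor level and the liver arrays are among those that chose the family.

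Gpx6 is flanked in RefSeq by Gpx5 and by the olfactory receptor gene Olfr1367, and Gpx5 and Gpx6 run on opposite strands of chromosome 13. Their promoters are shown as a neighbouring pair of which only Gpx6 was above the olfactory receptor level in any array. Gpx5 lies at chr13:21292687-21292936 on the minus strand and Gpx6 at chr13:21311953-21312202 on the plus strand, with capitals as above.
Gpx5: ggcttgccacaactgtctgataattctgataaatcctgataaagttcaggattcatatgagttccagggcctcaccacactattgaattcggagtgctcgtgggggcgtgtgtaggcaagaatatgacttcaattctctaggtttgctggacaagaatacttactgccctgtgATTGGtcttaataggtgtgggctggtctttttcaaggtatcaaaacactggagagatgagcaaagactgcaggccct
Gpx6: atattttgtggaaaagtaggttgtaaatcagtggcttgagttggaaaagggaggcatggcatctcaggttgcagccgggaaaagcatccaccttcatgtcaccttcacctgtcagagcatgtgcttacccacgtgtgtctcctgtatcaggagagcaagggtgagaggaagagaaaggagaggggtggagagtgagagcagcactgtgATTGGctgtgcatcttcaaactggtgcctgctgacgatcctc
Each of these windows held 1 CCAAT box, on the reverse strand, and neither the GC box nor the TATA box. Gpx5 read 3.99, 3.92 and 3.96 in young liver and 4.39, 4.21 and 3.97 in old liver, a difference of 0.23 (SE 0.11) with overlapping groups.

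The other members differed less with age in liver. Gpx2 read 5.81, 5.64 and 5.86 at 6 months and 6.27, 6.16 and 6.04 at 24 months (difference 0.39, SE 0.09). Gpx7 went from 6.05, 5.82 and 5.73 to 6.13, 6.42 and 6.11 (0.35, SE 0.12), and Gpx8 from 6.18, 6.34 and 6.24 to 6.51, 6.44 and 6.43 (0.21, SE 0.08). Gpx7 exceeded the olfactory receptor level in 0 of 3 young and 1 of 3 old liver arrays, and Gpx2 in 0 of 3 at each age. In each of Gpx2, Gpx7 and Gpx8 the old arrays lay above the young ones. Liver genes of their classes of expression were also higher in old liver, with medians of 0.18 for the class of Gpx2 and Gpx7 and 0.15 for that of Gpx8, and each of the 3 lay between the 5th and 95th percentiles of its class. Values also spread less within the old liver arrays (interquartile range 2.27 to 2.54 over all genes) than within the young ones (2.64 to 2.70). With quantile normalization the differences were 0.24 for Gpx2 and 0.08 for Gpx8.

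Gpx1, Gpx3 and Gpx4 differed least between the ages in liver. Gpx1 differed by -0.11 (SE 0.08), where the median of its class was -0.08, and Gpx4 by 0.00 (SE 0.08). Gpx3 differed by 0.04 (SE 0.19), and its young arrays spread over 0.89 units, from 6.67 to 7.56, against 7.13 to 7.18 in the old. Leaving out young replicate 1 turned its difference to -0.18, and leaving out young replicate 3 raised it to 0.27. In all, 7 members had a higher mean in old liver and 1 a lower, with a median of 0.22 where that of all genes was 0.03. Of all genes, 0.326% passed an adjusted p of 0.05 (28 higher and 37 lower, or 347 and 1613 with centred arrays). The groups did not overlap in 4 members, each higher in old liver, as in 18.7% of all genes in that direction, and nothing is read from this count, since this contrast brought the family to notice.

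**Figure D4:**
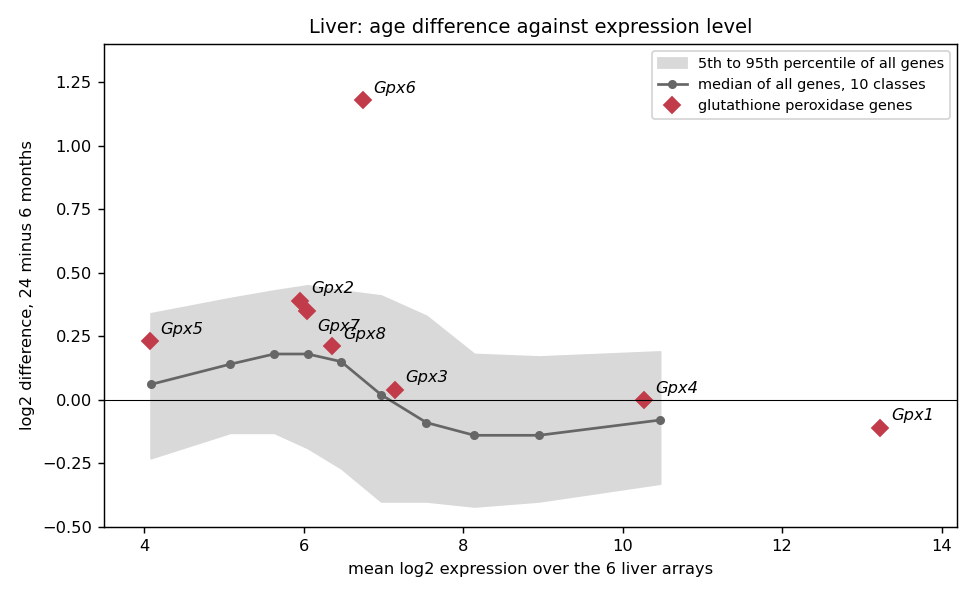
Difference between 24 and 6 months in liver (y axis, log2 units) against mean log2 expression over the 6 liver arrays (x axis); the grey line joins the medians of 10 equal classes of all 19928 genes, the band spans their 5th to 95th percentiles, and diamonds are the glutathione peroxidase genes. Gpx6, at 1.18, is the only member outside the band, whose upper edge is 0.41 in its class. Nothing is read from its place, since its higher level in old liver chose the family. The band ends before Gpx1 because each class is drawn at its median level.

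In the 3 muscles, no member passed the threshold with age. In quadriceps 0 of 8 members were called (limma, adjusted p), as were 0.00502% of all genes, and 3 had an unadjusted p under 0.05, against 7.06% of all genes. Gpx2 read 6.10, 6.34 and 6.10 at 6 months and 6.58, 6.60 and 6.34 at 24 months, and the groups touched at 6.34 (difference 0.33, 95% interval 0.10 to 0.56, adjusted p = 0.591). Gpx7 read 6.39, 6.52 and 6.40 and then 6.34, 6.06 and 6.17, all old arrays lower (-0.25, 95% interval -0.45 to -0.05, adjusted p = 0.627). Gpx5, below the olfactory receptor level, differed by 0.17 (adjusted p = 0.684), with all old arrays higher. So 1 member was apart upwards and 1 downwards, against 6.69% and 5.33% of all genes. Gpx8 differed by -0.20 (95% interval -0.44 to 0.04, adjusted p = 0.749). Gpx1, Gpx3 and Gpx4 differed by -0.02, 0.03 and 0.03, with 95% intervals of -0.30 to 0.25, -0.15 to 0.21 and -0.12 to 0.19.

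In gastrocnemius 0 members were called, as were 0.00998% of all genes, and 3 had an unadjusted p under 0.05, against 16.5% of all genes. Gpx4, the membrane form, read 8.11, 8.32, 8.43 and 8.26 at 6 months and between 7.96 and 8.23 at 24 months, with overlap (difference -0.20, 95% interval -0.39 to -0.02, adjusted p = 0.257). Gpx7 read 6.15, 6.24, 6.19 and 6.26 and then 6.06, 6.08, 6.13 and 6.06, the 1 member apart, with all old arrays lower, as in 4.78% of all genes (-0.13, 95% interval -0.23 to -0.02, adjusted p = 0.226). Gpx2 was higher by 0.19 (adjusted p = 0.254), below the olfactory receptor level. Gpx1 differed by -0.14 (95% interval -0.28 to 0.00, adjusted p = 0.31), where the median of its class of expression was -0.08. Gpx3 and Gpx8 differed by -0.06 and -0.01. Without 6-month replicate 3, at 6.72, Gpx8 differed by 0.11 (adjusted p = 0.515).

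In heart the ages overlapped in every member, where 3.29% of all genes did not. None of the 8 members had an unadjusted p under 0.05, against 5.99% of all genes, and 0 were called, as were 0.00665% of all genes. The differences ran from -0.04 for Gpx6 to 0.15 for Gpx5 (95% interval -0.02 to 0.31, adjusted p = 0.867). Gpx4 read 8.43, 8.50, 8.56 and 8.49 at 6 months and 8.66, 8.64, 8.56 and 8.50 at 24 months (0.09, 95% interval -0.02 to 0.21, adjusted p = 0.902). Gpx1 and Gpx3 differed by 0.01 (95% interval -0.13 to 0.15) and 0.07 (-0.09 to 0.23).

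The age differences of heart and gastrocnemius were compared directly. None of the 8 members was called, where 0.595% of all genes were (147 higher and 32 lower in heart, or 69 and 44 with quantile normalization), and 2 members had an unadjusted p under 0.05, against 13.8% of all genes. These were Gpx4, whose age difference was 0.30 higher in heart (95% interval 0.09 to 0.51, adjusted p = 0.186), and Gpx7, 0.21 higher (95% interval 0.05 to 0.36, adjusted p = 0.217). For the rest the difference ran from -0.17 for Gpx2 to 0.18 for Gpx5. Between liver and quadriceps, which hold the contrast that brought the family to notice, the age difference of Gpx6 was 1.10 higher in liver (SE 0.23), that of Gpx7 0.60 (SE 0.15) and that of Gpx8 0.40 (SE 0.13), as values without a test.

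**Figure D5:**
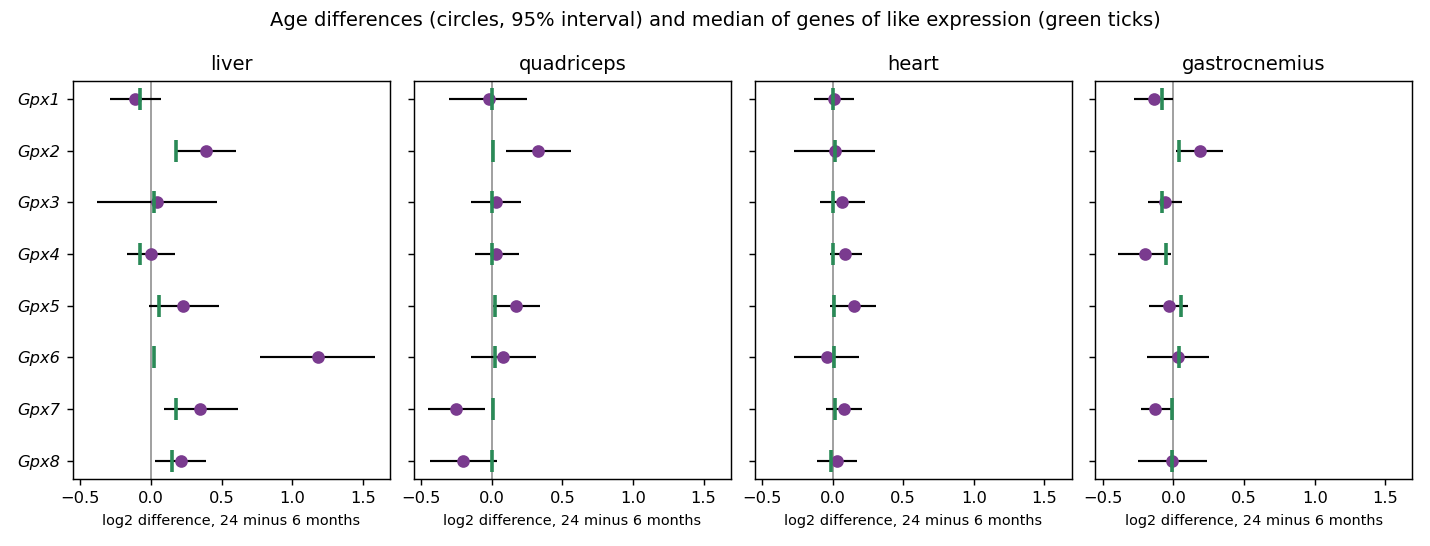
Difference between 24 and 6 months of each gene in 4 tissues on the log2 scale (x axis); circles are the estimates with 95% intervals (3 arrays per age in liver and quadriceps, 4 in heart and gastrocnemius), and green ticks are the medians of all genes in the same of 10 classes of expression. Gpx6 in liver lies at 1.18, and all other estimates lie between -0.25 and 0.39.

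Gene profiles most like those of the members were sought over the 8 group means, with the 4 means of each table centred on their own mean, among 18974 genes measured in both tables. For Gpx3, the 3 genes with the smallest root mean square difference were Lrrc39 (0.06), Hrc (0.09) and Coro6 (0.13). For Gpx1 they were Sdc1 (0.04), C2 (0.05) and Sgms2 (0.05), and for Gpx6 Cela3b (0.14), Tff3 (0.16) and Cyp26a1 (0.16). Cela3b, a pancreatic elastase gene, went from 6.54 to 7.91 in liver, in a group that holds the array with high pancreas markers. Tff3 went from 7.86 to 8.50 in liver and Cyp26a1 from 6.30 to 6.88. Gpx6 read 7.22 in the array with high pancreas markers, against 7.79 and 6.99 in the other old liver arrays. The part of pancreas RNA in these levels was not tested. These likenesses describe the levels and rest mostly on the contrast between liver and quadriceps, which share an array type. For Gpx6, whose centred group means span 2.43, they also rest on the age difference of 1.18 in liver that chose the family.

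Other genes of peroxide removal and glutathione metabolism were read from 9 lists. In liver, where 0.326% of all genes passed an adjusted p of 0.05, 90 genes of the lists were measured, and 2 fell and none rose at that threshold. They were Osgin1, a target of the stress factor Nrf2, from 10.97 ± 0.20 to 10.22 ± 0.10 (SD, n = 3; -0.75, adjusted p = 0.0493), and Pdia6, a disulphide isomerase of the endoplasmic reticulum, from 9.40 ± 0.05 to 8.93 ± 0.03 (-0.48, adjusted p = 0.0493). Both calls sat just under the threshold. They were lost with quantile normalization (adjusted p = 0.0605 and 0.0689) and when any of 5 of the 6 liver arrays was left out (adjusted p from 0.0887 to 0.172). Without 24-month replicate 3 the count over the lists was 20, where 25.5% of all genes were called. It was 15 with arrays centred on their median, where 9.84% of all genes were called. Of 8 genes of oxidative folding in the endoplasmic reticulum, the compartment of Gpx7 and Gpx8, all 8 had lower means in old liver (median -0.30, all genes 0.03), of which only Pdia6 passed. Genes of like expression were lower too: the median of their class medians was -0.08, and 7 of the 8 lay below the median of their own class. Of 13 measured genes of glutathione synthesis and recycling, 5 had higher and 8 lower means (median -0.04, class medians -0.08). Among them Gsr, which encodes glutathione reductase, differed by -0.26 (adjusted p = 0.0721). Of 11 peroxiredoxin and thioredoxin genes, 2 had higher and 9 lower means (median -0.19, class medians -0.08). Catalase and superoxide dismutase genes, 5 in all, had a median of -0.03 (class medians -0.08). For the 11 genes of selenocysteine synthesis and selenium transport it was -0.06, and for 14 other selenoprotein genes -0.04 (class medians -0.08 for each list). NADPH supply genes (8 measured) had a median of 0.03 (class medians -0.11). The median was -0.04 for the 10 genes of the Nrf2 pathway and 0.00 for the 10 genes of lipid peroxidation and ferroptosis (class medians -0.08 for each list).

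In the muscles none of these genes passed: 0 of 90 in quadriceps, 0 of 85 in heart and 0 of 85 in gastrocnemius, with 11, 6 and 16 at an unadjusted p under 0.05, where all genes had 7.06%, 5.99% and 16.5%. In quadriceps Gclm and Gclc, the subunits of the enzyme that starts glutathione synthesis, differed by -0.49 (adjusted p = 0.567) and -0.35 (adjusted p = 0.572). In heart the Nrf2 targets Hmox1 and Nqo1 differed by 0.36 (adjusted p = 0.667) and 0.27 (adjusted p = 0.72). Hmox1 differed by -0.48 (adjusted p = 0.536) in quadriceps and -0.11 (adjusted p = 0.627) in gastrocnemius. Nqo1 differed by 0.01 (adjusted p = 0.992) and -0.09 (adjusted p = 0.641) there. In gastrocnemius the selenoprotein genes Msrb1, a methionine sulfoxide reductase, and Selenow, a small muscle selenoprotein, differed by -0.40 and -0.30 (both adjusted p = 0.103). Old arrays lay below young ones in both, as in 4.78% of all genes. Of the 14 genes in the list of other selenoproteins, 2 were higher and 3 lower at an unadjusted p under 0.05. The higher ones, Selenos (0.23, adjusted p = 0.108) and Selenoi (0.19, adjusted p = 0.138), had all old arrays above the young. The share of all genes in that direction is not given here.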

How the data were processed

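The authors deposited log2 expression values per probe set and array in 2 tables, one per Affymetrix array type; per the submitters' processing notes the tool was RMA (background correction, normalization between arrays, one value per probe set), its version not given in the sources used here. A shift common to most genes can be lost in such values. All 28 columns were mapped by name, with 0 missing values. Probe sets with 1 gene symbol (21797 of 28944 and 30604 of 65956) were kept, symbols were updated through RefSeq GRCm38.p6, and the probe set with the highest mean stood for its gene. In R 4.3.3, limma 3.58.1 (lmFit and eBayes, two-sided) compared ages within each tissue; tissue differences and the difference of age differences came from one model of all 4 groups of a table. P-values were adjusted by Benjamini-Hochberg over all genes, with a threshold of 0.05; 95% intervals are single-gene intervals. Fits were tested on simulated data. No 2 arrays were identical. The number of arrays limits precision: the median SE of an age difference was 0.10, 0.08, 0.06 and 0.07 in liver, quadriceps, heart and gastrocnemius. Members and lists were chosen with earlier results of these data known. Named genes outside the family are those past the threshold in the lists, or, where none passed, the 2 of smallest p in the list with the largest share at unadjusted p under 0.05. Gsr, Selenos, Selenoi, the levels of Cela3b, Tff3 and Cyp26a1, and Hmox1 and Nqo1 outside heart were added after their values were seen. Alternatives were quantile normalization, centred arrays, every probe set, dim genes left out, an intensity trend with a robust prior, the replicate number as a block, a joint fit, and leaving out each array. Promoters came from RefSeq; protein sequences were not used here.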

Additional observations from a re-analysis of the deposited data

Results flagged for a closer look

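Gpx7 in heart 24-month replicate 4 read 6.21, apart from the other 3 old heart arrays at 6.36 to 6.39 (gap over range 0.83). Gpx8 in gastrocnemius 6-month replicate 3 read 6.72, apart from the other 3 young arrays at 6.22 to 6.30 (0.84). These were 2 of 32 sets of 4 arrays examined, and chance marks about 1 in 20.

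In Gpx7 every old liver array lay above the young liver mean and every old quadriceps array below the young quadriceps mean, and the age differences were 0.60 apart. The same held for Gpx8, with age differences 0.40 apart. Neither difference was tested. In liver, Gpx7 was above the olfactory receptor level in 0 of 3 young and 1 of 3 old arrays.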

How the results depend on the processing

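The counts of members called with age stayed at 0 in quadriceps, heart and gastrocnemius, and in the comparison of heart with gastrocnemius age differences, under every alternative run. Gpx6 in liver lay between 0.95 and 1.35. Dim genes left out removed members from testing. Of those left, 4 of 4 were called between liver and quadriceps, as were 82.6% of all genes kept. Between heart and gastrocnemius 3 of 5 were called, against 80.2% of all genes kept. At 24 months all 8 were called between heart and gastrocnemius as deposited, against 75% of all genes. Between heart and gastrocnemius, quantile normalization turned Gpx5 to -0.33, Gpx6 to -0.01 and Gpx7 to -0.30, and centred arrays turned Gpx1 to -0.19, Gpx3 to -0.06, Gpx4 to -0.10, Gpx5 to -0.24 and Gpx7 to -0.28; between liver and quadriceps, quantile normalization turned Gpx4 to -0.05, and Gpx7 was 0.03 at 24 months. The cause was not tested. Other antioxidant genes called in liver (2 as reported, where 0.326% of all genes were called) numbered 0 with quantile normalization (all genes 0.0602%) and 15 with centred arrays (9.84%). In alternatives chosen after seeing the data they numbered 14 with dim genes left out (17%), 17 with the intensity trend (11.3%), 15 in the joint fit (18.2%) and 0 with the replicate block (0%). Also chosen after seeing the data were the counts with 1 array left out, 0 to 20 (0% to 25.5%), and in the gastrocnemius joint fit, 7 (2.76%). Age differences near 0 changed sign without being called: Gpx1 in heart (-0.01 under both scalings) and Gpx6 in gastrocnemius (-0.01 with quantile normalization). With each array left out, Gpx1 ran from -0.12 to 0.09 and Gpx3 from -0.01 to 0.09 in quadriceps, Gpx1 from -0.04 to 0.04, Gpx2 from -0.08 to 0.11 and Gpx6 from -0.13 to 0.03 in heart, Gpx6 from -0.02 to 0.14 and Gpx8 from -0.06 to 0.11 in gastrocnemius, and Gpx8 from -0.08 to 0.09 in the difference of age differences. The labels do not say that replicate numbers pair samples, and numbers were not taken to do so. Deviations of same-numbered arrays of the 2 ages had r from -0.22 to 0.30. The own number matched best for 3 of 4 arrays in gastrocnemius, 2 of 3 in liver, 1 of 3 in quadriceps and 0 of 4 in heart. Same-numbered arrays of 2 tissues at 1 age had r from -0.11 to 0.19. With the replicate block 0 genes were called with age in each tissue (65, 1, 2 and 3 without it), and the members called were 0 in each muscle. Over all alternatives, the count of all genes called with age ran from 0 to 5073 in liver (the highest without 24-month replicate 3), 0 to 18 in quadriceps, 0 to 25 in heart and 0 to 829 in gastrocnemius. The count in the comparison of heart with gastrocnemius age differences (179 as reported) ran from 22 without heart 6-month replicate 1 to 547 without gastrocnemius 24-month replicate 3. Heart calls split 6 higher and 4 lower with quantile normalization and 3 and 3 with centred arrays, against 2 and 0. Signal near background limits Gpx2, Gpx5, Gpx7 in liver, and Gpx6 in young liver and outside liver.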
